A study of Rattus norvegicus with 9 samples.

Results

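The control fetal rat lung was described from 3 of the 9 libraries of the series, those labelled as control lung with no treatment. The other 2 groups, which served for comparison, were 3 untreated hypoplastic lungs and 3 hypoplastic lungs given AFSC-EV (vesicles released by stem cells of the amniotic fluid), and all 9 lungs came from Sprague-Dawley rats. The series title names a shortage of amniotic fluid (oligohydramnios) as the origin of the hypoplasia. Total RNA of frozen lungs was sequenced after ribosomal RNA had been depleted. The sources used here give no fetal age, litter, vesicle dose or route, and do not say whether lungs were pooled. RNA of all libraries was extracted on one day. Genes were ranked by their mean CPM (counts scaled to an equal total, 1000000, in each library) over the 3 control libraries, after 6 rows of ribosomal and 7SL RNA had been left out, so that 17459 of the 17465 rows of the table were ranked. Below, 3 values in a row are CPM in control libraries 1, 2 and 3, in that order.

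The fetal lung is a branching tube of epithelium inside a mesenchyme that supplies fibroblasts, smooth muscle, cartilage and vessels. Growth signals pass between the tissues: FGF10 from the mesenchyme drives budding, SHH from the epithelium restrains and patterns the mesenchyme, and WNT, BMP and Notch signals set cell fates. Late in gestation the distal epithelium splits into alveolar type II cells, which make surfactant, and flat alveolar type I cells, across which gas is exchanged after birth, while the airways gain ciliated, secretory, basal and neuroendocrine cells.

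Control library 2 stood apart from the other control libraries, and the values below are therefore given library by library. Libraries 1 and 3 differed by more than 2-fold in 136 of the 11468 genes with a mean of at least 1 CPM, whereas libraries 1 and 2 did so in 588 genes and libraries 2 and 3 in 811. In the 1040 genes (9.07%) whose highest and lowest control libraries were over 2-fold apart, library 2 was the farthest from the middle value in 763, with 248 higher and 515 lower. Over all 11468 genes, libraries 1, 2 and 3 were the highest control in 2889, 5171 and 3408 and the lowest in 3049, 4002 and 4417. Library 2 was the highest of all 9 libraries in 3088 of them and the lowest in 2094. List counts of highest or lowest genes below are to be read beside these numbers. The coefficient of biological variation estimated by edgeR was 0.229 over the controls and 0.149 without library 2, against 0.285 without library 1 and 0.236 without library 3. The control totals were 64318782, 56922779 and 72252538 estimated counts, of which the ribosomal and 7SL rows held 16%, 19.9% and 14.7%, and 1 CPM stood for 54, 45.6 and 61.6 of the remaining counts. By their Y-linked genes, control libraries 1 and 2 were male and library 3 was female. In the other groups, hypoplastic library 3 and treated library 3 were male and libraries 1 and 2 of each were female, so sex was not balanced between the groups.

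The control lungs expressed a broad set of genes with no dominant transcript. Of the ranked genes, 11104 were at 1 CPM or more in all 3 libraries, 8266 at 10 or more, 1823 at 100 or more and 95 at 1000 or more, while 3037 were at 0 in all 3. The 10 leading genes held 7.61% ± 0.141 (SD, n = 3) of the counts, the leading 100 held 24% and the leading 1000 held 58%. The first 25 places went mostly to genes that every cell uses. Eef1a1 (translation elongation factor 1 alpha) led at 19919, 16623 and 19389 CPM, followed by a row without a symbol (Gene ID 310926) at 11598, 12663 and 12554, and by the actin gene Actb at 8385, 8941 and 6988. Gnas (the stimulatory G protein alpha subunit), Eef2, Nedd4 (a ubiquitin ligase), Tpt1, Actg1, Pabpc1, Tubb5, Hsp90ab1, Gapdh, the ferritin genes Ftl1 and Fth1, Rack1 and the ribosomal protein genes Rplp0, Rps2, Rpsa, Rps18, Rpl4, Rps4x and Rpl41 were also among them. The 89 genes of cytoplasmic ribosomal proteins together held 10.3% ± 0.437 (SD, n = 3) of the counts.

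Set among these housekeeping genes were 3 that belong to the fetal state or to blood. The imprinted growth factor gene Igf2 ranked 13th at 4139, 2780 and 3360 CPM, and its neighbour in the genome, the noncoding RNA H19, ranked 8th at 5468, 3336 and 4599. Both were lowest in library 2. The beta globin gene Hbb ranked 6th at 4458, 8457 and 2676 CPM, highest in library 2 and lowest in library 3. CPM counts reads and not molecules, so a long transcript ranks higher than a short one of equal number. When the mean was divided by the genomic span of the gene, introns included, 12 of the leading 25 remained among the leading 25, so levels below are compared between libraries and not between genes, and the genes of a list are only named in the order of their CPM.

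**Figure D1:**
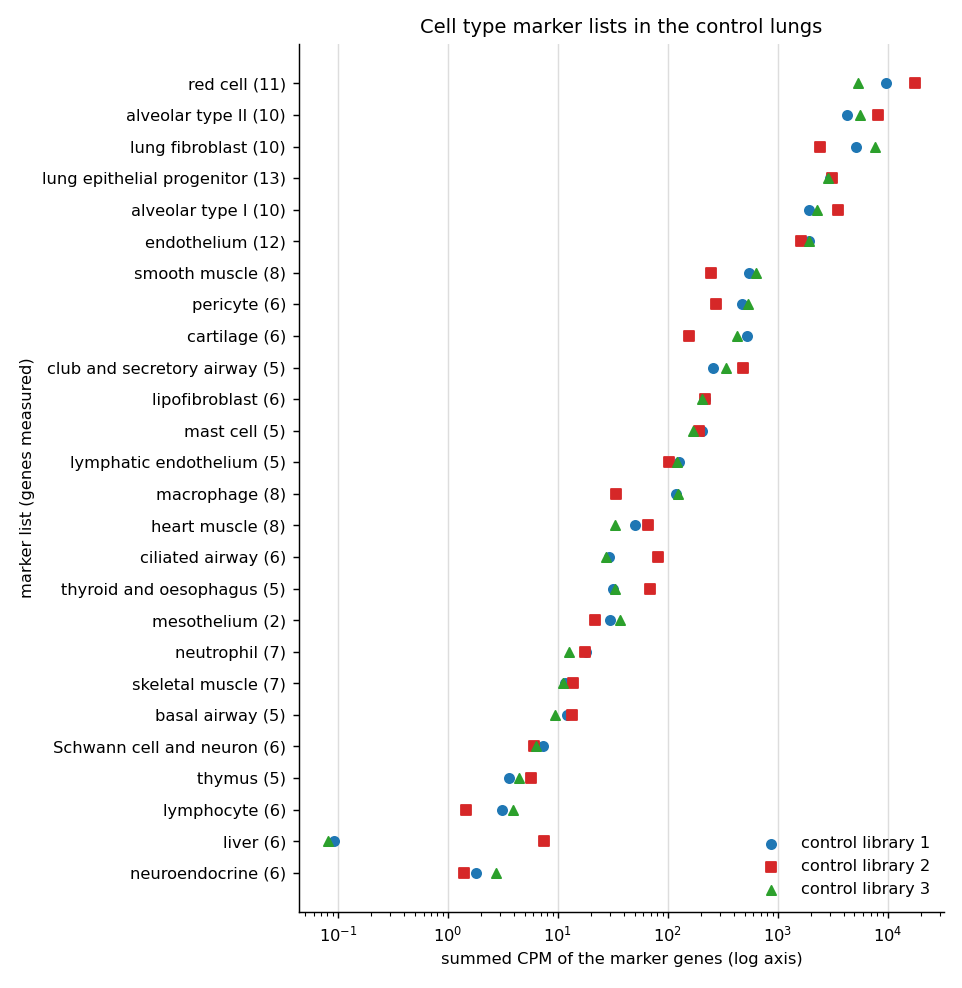
Summed CPM (log axis) of the measured marker genes of 26 cell type lists in control libraries 1 (circles), 2 (squares) and 3 (triangles), with the number of genes measured after each list name. Sums of different lists are not corrected for transcript length; library 2 lay above the other control libraries for red cell (17811 CPM) and alveolar type II (8146) markers and below them for fibroblast (2425) and macrophage (33.9) markers.

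Alveolar type II markers were present in every control lung and were higher in library 2. All 10 markers were at 1 CPM or more in all 3 libraries, and they summed to 4271, 8146 and 5619 CPM. The surfactant protein genes were at 1096, 2469 and 1630 CPM for Sftpb and at 778.8, 1170 and 1045 for Sftpc, which encode the small hydrophobic proteins of the surfactant film. Sftpa1, one of the collectins of surfactant, was at 406.5, 945.8 and 519.6 CPM, and the phosphate transporter gene Slc34a2 at 801.5, 1421 and 843.3. Library 2 was the highest of the 3 for 9 of the 10 genes, by a median log2 difference of 0.79 from the mean of the other 2 libraries (on the scale of log2(CPM + 0.1), as below), and for 8 of them it was the highest of all 9 libraries. The exception was Lyz2, a lysozyme gene shared with macrophages, which was at 281, 266.1 and 373.6 CPM. The 4 surfactant protein genes together held 0.235%, 0.481% and 0.331% of the counts. In these bulk samples, fewer cells of a type and less RNA per cell cannot be told apart.

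Promoters of the alveolar type II and club cell lists, whose members above 1 CPM were mostly highest together in library 2, were searched for CAAGTG, the core of the binding sequence of NKX2-1, the transcription factor of the lung epithelium, on both strands of the 250 bases before the start. It was found in 3 of 7 alveolar type II promoters held in the table (Ctsh, Lamp3 and Sftpa1), in 2 of 5 club cell promoters (Scgb1a1 and Scgb3a1) and in 3929 of all 33469 promoters (11.7%). Those of Sftpa1 (GRCr8, chr16:17042014-17042263, plus strand) and Scgb1a1 (chr1:215409687-215409936, minus strand), from RefSeq, are shown 5′ to 3′ with the match, or its reverse complement, in capitals.
Sftpa1: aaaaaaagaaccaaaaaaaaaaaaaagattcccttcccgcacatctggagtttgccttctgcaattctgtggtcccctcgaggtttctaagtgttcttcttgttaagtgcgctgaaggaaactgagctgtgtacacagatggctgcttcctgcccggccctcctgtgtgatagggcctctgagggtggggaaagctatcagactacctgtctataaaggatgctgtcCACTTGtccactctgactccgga
Scgb1a1: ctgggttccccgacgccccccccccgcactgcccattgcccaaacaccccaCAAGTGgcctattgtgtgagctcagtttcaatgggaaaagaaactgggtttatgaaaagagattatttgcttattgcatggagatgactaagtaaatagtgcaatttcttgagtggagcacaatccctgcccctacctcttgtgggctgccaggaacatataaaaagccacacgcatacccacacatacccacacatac
The match began 23 bases before the start in Sftpa1 and 199 bases before it in Scgb1a1. A match describes these letters and is not a measured binding site.

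Alveolar type I markers followed the type II markers. All 10 were at 1 CPM or more in all 3 libraries, with sums of 1929, 3546 and 2271 CPM, and library 2 was the highest of the 3 for 8 of them (median log2 difference 0.74). Ager, which encodes the RAGE receptor and is a defining gene of type I cells, was at 50.96, 127.6 and 74.24 CPM, and Emp2, a membrane protein gene, at 475.7, 1047 and 552.3. The caveolin gene Cav1, shared with endothelium, was at 471.3, 912.4 and 604.3 CPM. Cldn18, a tight junction claudin, was at 563.8, 723.3 and 586.7 CPM, and Clic5 at 135.2, 300.5 and 161. The water channel gene Aqp5, a marker of mature type I cells, was at 4.256, 5.068 and 7.106 CPM, and was highest in library 3.

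General and progenitor epithelial genes did not share the shift of library 2. The adhesion genes Cdh1 (829.9, 882.4 and 801.8 CPM) and Epcam (605.7, 619.4 and 631.2) differed little between the libraries. Nkx2-1 was at 429.6, 543.4 and 429.1 CPM, and Etv5, a transcription factor of the FGF response in distal tips, at 342.4, 381.1 and 281.3. Sox9, the transcription factor of the branching distal tip, was lowest in library 2 (226.3, 131.1 and 188.2 CPM), while Sox2, that of the airways, was highest there (2.961, 9.83 and 3.019). Over the 13 genes of this list the median log2 difference of library 2 was 0.11, with 7 genes highest and 5 lowest in it. Over all 11468 genes the median was 0.05, with 5171 highest and 4002 lowest in it.

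Of the airway markers, the ciliated and secretory ones were again highest in library 2. Foxj1, the transcription factor of ciliated cells, was at 19.18, 60.83 and 17.93 CPM, and the ciliary genes Ccdc39, Tekt1 and Rsph1 at 4.035, 8.708 and 4.058, at 3.433, 6.717 and 3.423 and at 1.369, 3.752 and 1.251. Library 2 was the highest of all 9 libraries for each of the 5 ciliated markers with a mean of at least 1 CPM (median log2 difference 1.09), and Sntn was under 1 CPM. The secretoglobin genes of club cells, Scgb1a1 (221.9, 413.1 and 302.1 CPM) and Scgb3a2 (33.22, 65.32 and 34.39), and the cytochrome gene Cyp2f4 (4.956, 8.228 and 2.272) were also highest in it, while Scgb3a1 and Bpifa1 were under 1 CPM. Of the basal cell genes, Krt15 was at 9.685, 11.12 and 7.759 CPM and Tp63 at 1.425, 1.191 and 1.126, while Krt5, Krt14 and Ngfr were under 1 CPM. Of the neuroendocrine genes, Calca (calcitonin gene-related peptide) reached a mean of 1 CPM (1.147, 0.3043 and 1.639), while Chga, Grp, Syp and Resp18 did not.

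Mesenchymal markers were lower in library 2, the reverse of the alveolar and airway markers. The collagen genes Col3a1 (2162, 890.6 and 3464 CPM), Col1a1 (1428, 736.6 and 2228) and Col1a2 (1203, 621.9 and 1599) and Pdgfra, the PDGF receptor of mesenchymal progenitors (145.9, 43.83 and 213.5), were lowest in library 2 and highest in library 3. Over the 10 fibroblast genes the median log2 difference of library 2 was -0.86, and 8 were lowest in it. Not all moved alike: Tcf21, a transcription factor of lung mesenchyme, was at 32.89, 27.45 and 37.43 CPM, and Fgf10, the budding signal, at 6.525, 5.88 and 6.836. The lipid-storing fibroblast genes Lpl (90.98, 97.02 and 73.84 CPM), Plin2 (69.78, 49.72 and 74.09), Lepr (30.38, 46.55 and 32.61) and Pth1r (20.38, 20.64 and 19.78) had no common direction, with a median difference of 0.14.

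Smooth muscle and pericyte genes were further apart in library 2 than fibroblast genes. Each of the 8 smooth muscle genes was lowest in library 2, with a median log2 difference of -1.08. The smooth muscle actin gene Acta2 was at 176.1, 84.21 and 228.9 CPM, the desmin gene Des at 138.7, 41.69 and 162.6, the smooth muscle myosin gene Myh11 at 94.41, 54.43 and 80.92, and Tagln, an actin-binding protein gene, at 78.61, 32.28 and 100.8. All 6 pericyte genes were lowest in library 2 as well (median -1.06), including Notch3 (186.7, 114.5 and 223.8 CPM), Cspg4 (112, 84.81 and 98.52), Pdgfrb (94.75, 34.93 and 97.85) and the potassium channel subunit gene Abcc9 (62.36, 30.15 and 87.39). The mesothelial genes Msln (20.23, 17.62 and 23.49 CPM) and Wt1 (9.39, 4.165 and 13.38) were also lowest in library 2.

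Matrix genes were mostly lowest in library 2 and highest in library 3. The 28 collagen genes measured held 1.04%, 0.59% and 1.38% of the counts. Of 23 matrix genes, 21 were lowest in library 2 and 21 were highest in library 3, with a median log2 difference of -0.68 for library 2. Elastin (Eln), the elastic protein of airway and vessel walls, spread widely at 745.2, 302.8 and 1688 CPM. The basement membrane genes Col4a1 (2055, 1500 and 2523 CPM), Lamc1 (1547, 1270 and 1695) and Lama5 (1819, 1792 and 2132), the fibronectin gene Fn1 (1215, 829.6 and 1439) and the collagen-binding protein gene Sparc (1939, 1882 and 2386) spread less. The exceptions were 2 elastic fibre genes highest in library 2, fibrillin 2 (Fbn2) at 977.2, 1480 and 903.3 CPM and fibulin 5 (Fbln5) at 83.78, 131.4 and 96.93.

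Endothelial genes varied less between the libraries than alveolar or fibroblast genes, whose median CVs (the SD over the mean) were 34%, 32.2% and 32.5% for type II, type I and fibroblast lists. Over 11 genes with a mean of at least 1 CPM the median CV was 13.5%, none was over 2-fold apart, and the median log2 difference of library 2 was -0.13. Pecam1, an adhesion gene of all endothelium, was at 360, 279.5 and 391.7 CPM, Tie1 at 268.4, 186.7 and 284.3, the apelin receptor gene Aplnr at 236.9, 273.8 and 206.6, and the cadherin gene Cdh5 at 258.1, 222.1 and 227.9. Car4, a carbonic anhydrase of one kind of alveolar capillary cell, was under 1 CPM. Lymphatic vessels were marked by Lyve1 (85.34, 75.25 and 81.43 CPM) and Flt4 (31.45, 22.73 and 32.16), with Prox1 (3.925, 2.613 and 3.838) and Reln (3.665, 1.58 and 3.69) lower in library 2.

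**Figure D2:**
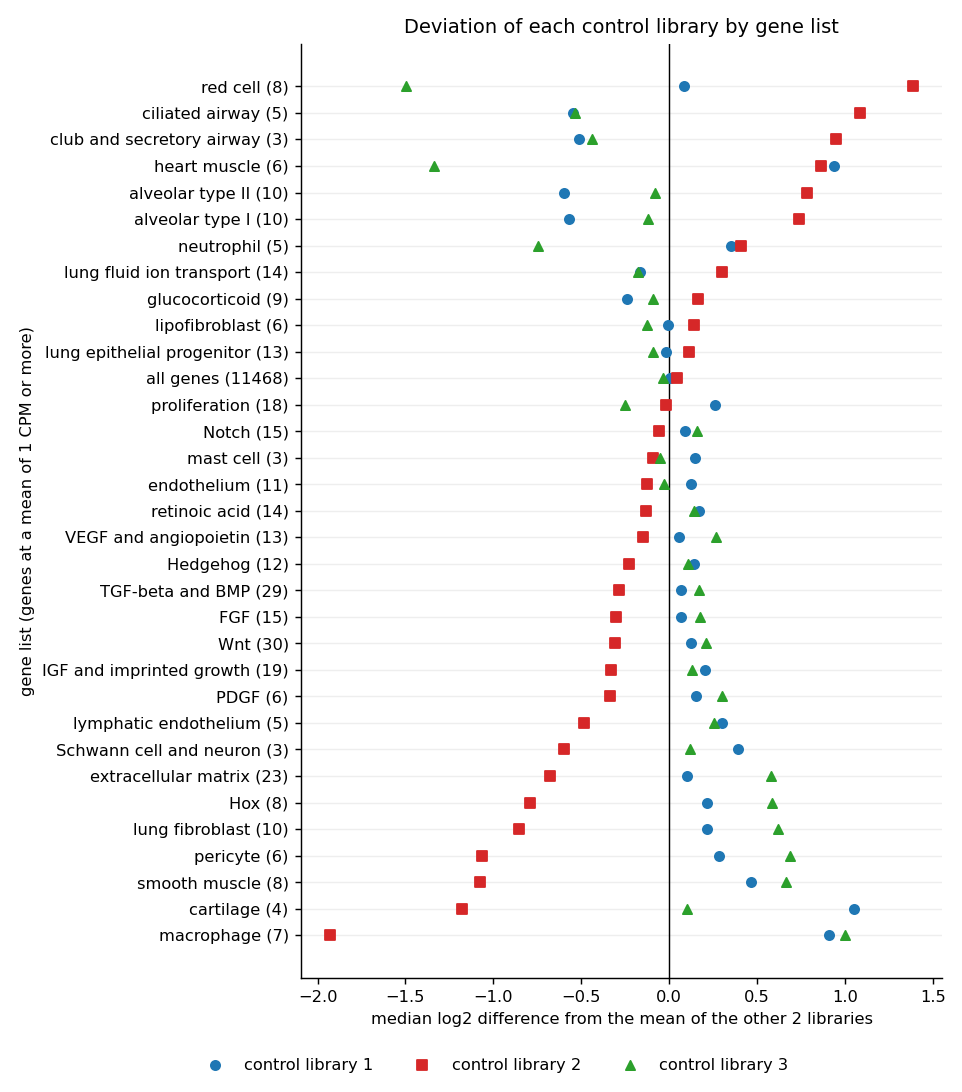
Median log2 difference of each control library from the mean of the other 2, for gene lists with at least 3 genes at a mean of 1 CPM or more (number in brackets), ordered by library 2. Library 2 (squares) ran from -1.93 for macrophage genes to 1.38 for red cell genes, while all 11468 genes together lay at 0.05.

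Red cell genes were highest in library 2 and lowest in library 3. They summed to 9669, 17811 and 5330 CPM, and all 8 genes with a mean of at least 1 CPM shared this order, with library 2 the highest of all 9 libraries. Besides Hbb, the beta globin gene Hbb-bs was at 1088, 1934 and 512.2 CPM, Alas2 (the first enzyme of haem synthesis in red cells) at 1118, 1841 and 769.3, and Slc4a1 (the anion exchanger of the red cell membrane) at 859.5, 1675 and 406.9. The 5 adult globin genes held 0.752%, 1.39% and 0.406% of the counts, and the embryonic globin genes Hbz, Hbe1 and Hbg1 were each under 1 CPM. Values of near-identical globin genes are uncertain, since the sources do not state how reads matching several genes were counted.

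The letters AGATAA, a core of the binding sequence of GATA factors that drive red cell genes, were found in 1 of 8 red cell promoters and in 3447 of all 33469 (10.3%), on either strand of the same 250 bases. The promoter with the match, that of Alas2 (GRCr8, chrX:22895200-22895449, plus strand), is shown 5′ to 3′ with it in capitals, 136 bases before the start.
Alas2: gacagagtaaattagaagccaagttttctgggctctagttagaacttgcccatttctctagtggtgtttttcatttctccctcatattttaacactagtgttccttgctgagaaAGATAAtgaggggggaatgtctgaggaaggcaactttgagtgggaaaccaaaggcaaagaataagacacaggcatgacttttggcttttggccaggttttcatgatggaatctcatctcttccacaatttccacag

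Macrophage genes had the lowest median difference in library 2 of the cell type and pathway lists. The receptor gene Csf1r was at 40.22, 10.29 and 44.22 CPM, the mannose receptor gene Mrc1 at 27.19, 9.785 and 21.31, and the complement genes C1qa and C1qb at 20.44, 5.47 and 26.19 and at 13.58, 4.432 and 15.62. All 7 genes with a mean of at least 1 CPM were lower in library 2 than in any of the other 8 libraries, with a median log2 difference of -1.93. Marco, a scavenger receptor of alveolar macrophages, was at 0 in all 3 libraries, where a count of 0 allows up to 0.0555, 0.0658 and 0.0487 CPM by counting error.

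The neutrophil genes S100a8 (5.418, 5.609 and 3.246 CPM), S100a9 (4.78, 3.642 and 2.466), Csf3r (2.703, 1.706 and 4.751) and Ngp (3.036, 4.475 and 1.184) were above 1 CPM in all 3 libraries, and Mpo and Elane were under 1 CPM. Of 6 lymphocyte genes only Rag1 exceeded a mean of 1 CPM (2.683, 1.075 and 3.131). Of the mast cell list, Kit (93.25, 83.65 and 85.25 CPM) and Hdc (103.8, 107 and 82.36) were present, but Cpa3, a mast cell protease, was at 6.967, 0.4388 and 1.98, and Tpsb2 and Fcer1a were under 1 CPM.

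Markers of neighbouring tissues were checked, because a dissected lung can carry pieces of them. Cartilage, which belongs to the airway wall, was marked by Col2a1 (495.1, 145.2 and 405.6 CPM), Col11a2 (12.51, 3.964 and 8.682), Col9a1 (11.69, 4.44 and 6.77) and Matn3 (1.776, 0.9873 and 1.136), each lowest in library 2. Of the heart muscle genes, Actc1 was at 10.19, 8.447 and 1.996 CPM, Tnni3 at 2.921, 2.106 and 1.704 and the atrial myosin gene Myh6 at 3.768, 1.175 and 0.01622, and 5 of the 6 genes with a mean of at least 1 CPM were lowest in library 3. Ryr2, a calcium release channel gene not limited to heart, was at 27.16, 49.38 and 27.64 CPM. Of nerve genes, Prph (1.795, 1.097 and 1.639 CPM) and Elavl4 (1.887, 0.9215 and 1.444) were detected, and Sox10 and Tubb3 were under 1 CPM. Skeletal muscle genes other than Acta1 and Ckm, thymus genes other than Psmb11, and thyroid and oesophagus genes other than Krt4 (30.92, 66.71 and 32.08 CPM) were under 1 CPM.

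Library 2 alone carried genes of the intestinal epithelium. This was seen first in the liver list, where Apoa1, an apolipoprotein gene of liver and intestine, was at 0.05551, 6.955 and 0.01622 CPM while albumin (Alb) and alpha-fetoprotein (Afp) were at 0.04388 and 0.08776 CPM in library 2. A list of 17 measured genes of intestinal epithelium, chosen after some of these values had been seen, summed to 1.7, 69.6 and 1.02 CPM, and to at most 1.76 CPM in each of the other 8 libraries. All 17 were highest in library 2 among the 9 libraries. The lactase gene Lct was at 0.3701, 8.253 and 0.08112 CPM, the lipoprotein gene Apoa4 at 0.2036, 12.81 and 0, the villin gene Vil1 at 0.111, 3.993 and 0.1622, and the retinol-binding protein gene Rbp2 at 0.09252, 3.166 and 0.03245. Whether this RNA has a part in the other differences of library 2 was not tested.

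**Figure D3:**
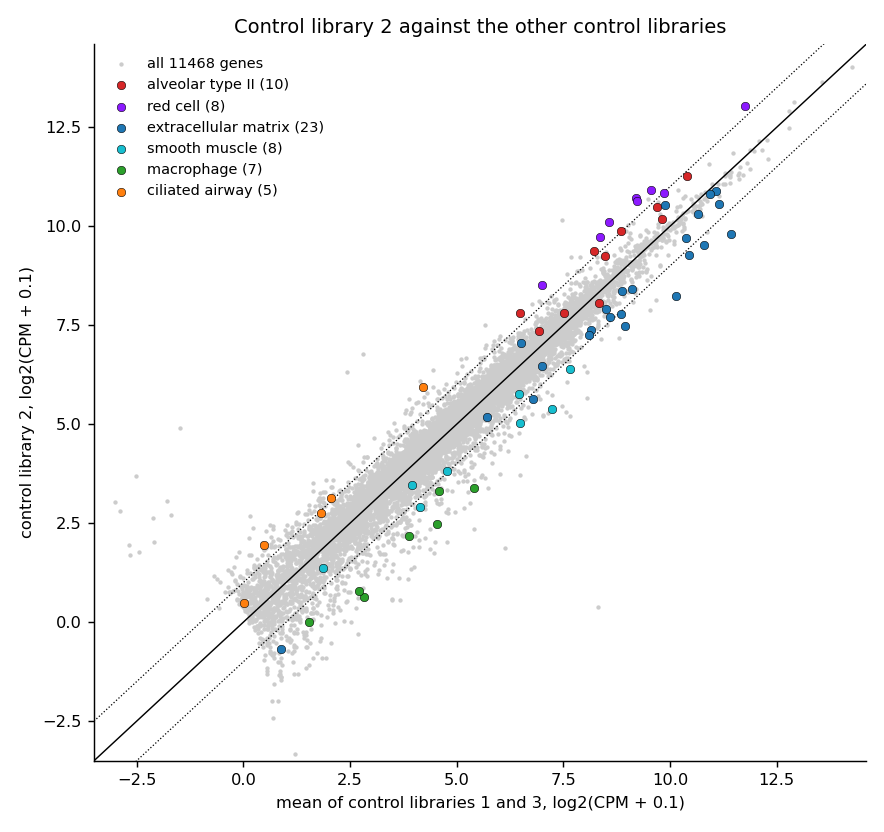
Level of each gene in control library 2 against the mean of control libraries 1 and 3, both as log2(CPM + 0.1), for the 11468 genes with a mean of at least 1 CPM. The dotted lines mark 2-fold; red cell and ciliated genes lie above the diagonal, matrix, smooth muscle and macrophage genes mostly below it.

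The signalling pathways of branching were expressed in all 3 control lungs. The median log2 difference of library 2 was -0.30 for FGF, -0.31 for Wnt and -0.29 for TGF-beta and BMP genes. It was -0.23 for Hedgehog and -0.06 for Notch genes. Library 2 was the lowest of the 3 for 10 of 15 FGF, 18 of 30 Wnt and 18 of 29 TGF-beta and BMP genes with a mean of at least 1 CPM. FGF receptors were present at 415.3, 546.6 and 417.2 CPM for Fgfr2, the epithelial receptor of FGF10, at 230.6, 323.7 and 308.8 for Fgfr3 and at 78.27, 59.87 and 90.55 for Fgfr1. The 6 FGF ligand genes were all at a mean of 6.41 CPM or less, and Fgf2 was under 1 CPM. The feedback inhibitor gene Spry4 was at 105.8, 64.13 and 145.6 CPM. All 6 targets and inhibitors of the pathway were above 1 CPM.

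Hedgehog genes were present from ligand to target. Shh was at 19.33, 24.69 and 18.49 CPM, the receptor gene Ptch1, itself a target, at 222.4, 175.9 and 217.7, the transcription factor gene Gli3 at 73.49, 70.79 and 76.23, and the co-receptor genes Boc and Cdon at 67.93, 48.36 and 74.61 and at 60.39, 47.36 and 59.37. Ihh was under 1 CPM. The median CV of the list was 15.9%, beside 12.5% over all genes.

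In the Wnt list, beta-catenin (Ctnnb1) was at 665.8, 638.1 and 627.6 CPM and the co-receptor genes Lrp5 and Lrp6 at 329.7, 212.9 and 376 and at 206.2, 166.6 and 245.5. The receptor gene Fzd7 was at 166.5, 102.2 and 230.2 CPM, and these 3 receptor genes were each lowest in library 2. Ligand genes were at means of 1.24 to 50.1 CPM, and Wnt7b, a ligand of the epithelium, varied little (30.02, 28.07 and 28.89). Of 31 genes only Lgr5, a receptor of R-spondins, was under 1 CPM.

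Of the TGF-beta and BMP list, Tgfbr2 was at 252.1, 277.6 and 290.2 CPM, Bmpr2 at 229.3, 243.3 and 239.5, and the signal transducers Smad4 and Smad3 at 216.3, 177.8 and 215.6 and at 195.2, 158.9 and 233.7. Ligand genes were at means of 1.86 to 93.1 CPM, and only Grem1, a BMP antagonist, was under 1 CPM. Notch receptors were at 298.9, 425.5 and 309.8 CPM for Notch2 and at 325.1, 330.5 and 365.5 for Notch1, and their nuclear partner Rbpj at 261.7, 200.2 and 302.4. Dlk1, an imprinted gene related to Notch ligands, was at 1414, 1865 and 2329 CPM. The endothelial ligand gene Dll4 spread more than the receptors, at 94.88, 36.77 and 175.1, and the target gene Hey2 was under 1 CPM.

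Of the retinoic acid genes, the receptor gene Rarg was at 98.43, 110.6 and 104.1 CPM. The enzyme genes Dhrs3 (81.56, 49.72 and 98.22 CPM) and Cyp26b1, which breaks retinoic acid down (71.75, 18.37 and 135.7), were lowest in library 2, while Aldh1a2, which makes it in mesenchyme, was even at 37.44, 38.6 and 35.58. The receptor gene Rara was at 63.73, 45.87 and 75.16 CPM, and Aldh1a3, Cyp26a1, Crabp1 and Rxrg were under 1 CPM. Of the vascular growth factors, Vegfa was at 527.7, 494.8 and 571.6 CPM, with its receptor genes Kdr at 226.7, 190.5 and 250.2 and Nrp1 at 292.3, 305.3 and 294, and all 13 genes of that list were above 1 CPM. The 4 PDGF ligand genes were at means of 2.12 to 37.5 CPM, and Pdgfb and Pdgfa were at 33.44, 34.07 and 44.9 and at 24.42, 22.78 and 25.86.

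**Figure D4:**
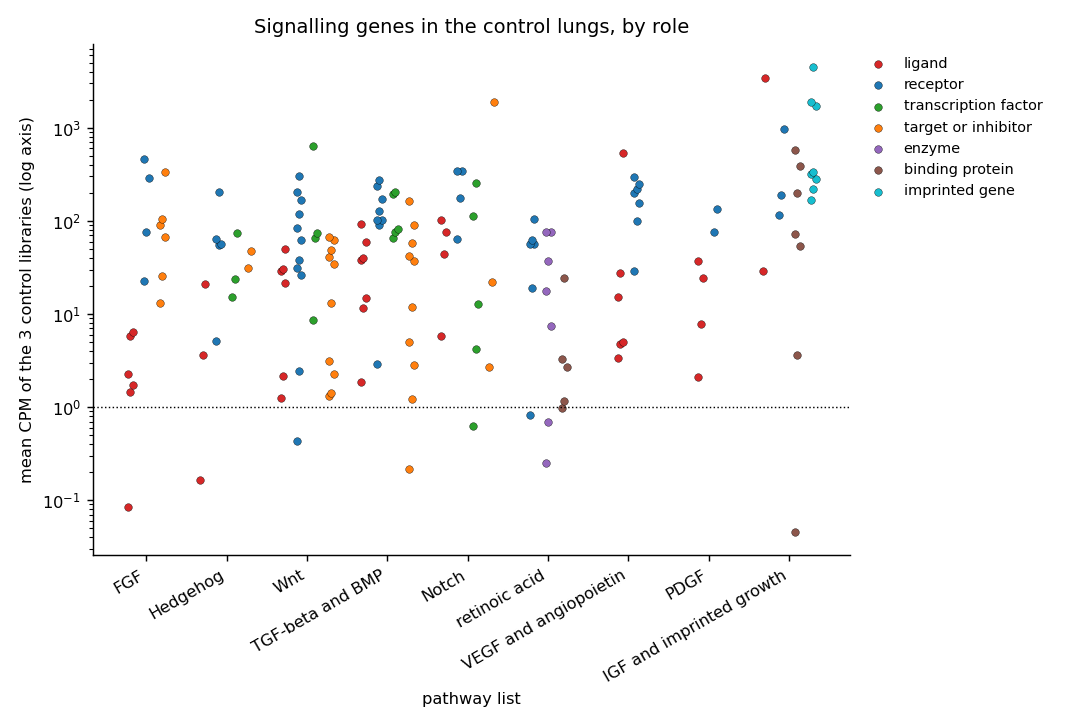
Mean CPM over the 3 control libraries (log axis) of each gene of 9 signalling lists, coloured by role; the dotted line marks 1 CPM. Most genes of every list lie above the line; levels are not corrected for transcript length, so the heights of different genes cannot be compared.

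Of the 19 genes of the IGF and imprinted growth list with a mean of at least 1 CPM, 13 were lowest in library 2. Their median log2 difference was -0.33, but the imprinted genes among them did not all vary together. Besides Igf2, H19 and Dlk1, the growth inhibitor gene Grb10 was at 1968, 1785 and 1436 CPM. The clearance receptor gene Igf2r was at 1017, 752.8 and 1157 CPM, and Igf1r at 118.3, 82.43 and 142.2. The noncoding RNA Meg3 was highest in library 2 at 169.2, 598.5 and 247.8 CPM, while Dlk1, from the same imprinted cluster, was highest in library 3. The binding protein genes Igfbp3 (207.8, 50.2 and 335.9 CPM) and Igfbp4 (633.6, 237.3 and 865) were lowest in library 2, and Igf1 was at 33.33, 12.86 and 40.37. Igfbp1 was under 1 CPM.

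Cell cycle and replication genes were present in every control lung, mostly highest in library 1 and lowest in library 3. All 18 were above 1 CPM and none was over 2-fold apart. Library 1 was the highest for 15 of the 18 and library 3 the lowest for 15, with median log2 differences of 0.26 and -0.25. The list includes Top2a (619.3, 546.2 and 476.7 CPM), Mki67 (306.7, 380 and 266.3), Rrm2 (215.5, 240.3 and 188.4) and Bub1 (148.6, 144.7 and 125.1), genes of chromosome handling, proliferation and nucleotide supply. Library 2 did not stand apart here (median log2 difference -0.02).

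The transport genes of lung fluid covered both secretion and absorption. Before birth the lung secretes chloride-rich fluid, and around birth sodium channels take it up. The sodium pump subunit gene Atp1b1 was at 458.7, 718.3 and 531.3 CPM, the chloride loader Slc12a2 at 352.2, 389.9 and 291.8, and the water channel gene Aqp1 at 292.5, 180.3 and 466.6. Scnn1a, a subunit of the epithelial sodium channel, had one of the wider spreads at 36.49, 182.5 and 70.04 CPM, while its partners Scnn1b (8.465, 11.69 and 8.129) and Scnn1g (33.55, 37.61 and 31.49) varied less. Slc26a4 was under 1 CPM.

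The glucocorticoid receptor gene Nr3c1, through which steroids mature the lung, was at 328.1, 355.4 and 386.5 CPM. Its response genes Per1 (152.2, 219.2 and 147.6 CPM), Dusp1 (157.5, 149 and 193.9) and Sgk1 (69.8, 82.82 and 56.19) had no common order, and Hsd11b2, an enzyme that inactivates the hormone, was under 1 CPM. Zbtb16, another response gene, was highest in library 2 at 38.94, 81.53 and 41.62 CPM.

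Hox genes, which mark position along the body axis, were represented mainly by those of anterior and middle position. Of 23 genes measured 8 were at a mean of at least 1 CPM. Among them was Hoxa5, which normal lung development needs, at 40.15, 26.83 and 49.47 CPM. Hoxb5 was at 24.81, 6.804 and 28.68 CPM, Hoxa3 at 13.03, 9.471 and 16.61 and Hoxb3 at 13.06, 9.293 and 14.04. Hoxa2, Hoxa4, Hoxb4 and Hoxb8 (2.24, 0.9434 and 3.963 CPM) were the others. The 7 Hox genes at 0 in all 3 libraries were Hoxa11, Hoxa13, Hoxb9, Hoxc9, Hoxc10, Hoxd10 and Hoxd13, which lie toward the posterior end of their clusters. Each of the 8 Hox genes above 1 CPM was lower in library 2 than in the other 8 libraries of the series.

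The spread of the control libraries was near that of the treated libraries, and smaller than that of the hypoplastic libraries by some measures. The median CV over genes with a mean of at least 1 CPM in the group was 12.5% in the control, 13.2% in the hypoplastic and 13.4% in the treated lungs. Over pairs of control libraries it was 7.76% without library 2, 10.7% without library 3 and 13.2% without library 1. These values over 2 libraries are not on a par with those over 3, and no library was left out of the other groups here. The edgeR coefficient of biological variation was 0.229, 0.296 and 0.228 in these groups, and 183, 386 and 159 genes were over 4-fold apart. The median CV of the controls fell with level, from 20.7% for genes at 1 to 10 CPM to 11.4% at 10 to 100 and 9.93% at 100 to 1000. Without library 2, the number of genes over 2-fold apart fell from 1040 to 155, beside 843 without library 1 and 612 without library 3. Fewer libraries lower such a count by construction. The stablest genes of at least 100 CPM were Ect2, a regulator of cell division (198, 198.4 and 197.5 CPM), Cox7a2, Tagln2 (1318, 1317 and 1312), Rc3h2, Rps21, Hdlbp, Dlg1, Carhsp1, Hnrnpf, Bcap31, Ppib and Bap1.

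Variable genes were ranked by the ratio of the highest to the lowest library, among genes with a mean of at least 10 CPM and at least 0.1 CPM in every control library. The last condition left out Ifit1, whose values are given with the comparisons. Of the 12 leading genes, 3 are sex-linked, and in most others library 2 was the highest or the lowest control library. That was also so for most of the 11468 genes with a mean of at least 1 CPM (highest in 5171, lowest in 4002). Xist, the RNA of the inactive X chromosome, was at 38.9, 1.209 and 2592 CPM, while Ddx3y was at 73.58, 80.01 and 0.292 and Eif2s3y at 104.5, 108.9 and 0.3732, both from the Y chromosome. The class I histocompatibility gene RT1-CE16 was lowest in library 3 (21.34, 14.24 and 1.805 CPM), as one of a family of near-identical genes whose counts are uncertain. Kcnj8, a pericyte potassium channel gene, was highest in library 3 and lowest in library 2 (10.39, 3.62 and 28.58). Library 2 was the highest for Tmcc2 (219.4, 1148 and 141.2 CPM) and the lowest for Lrat, which esterifies retinol for storage (23.25, 3.993 and 31.7), for the complement protease gene C1s (11.58, 2.457 and 19.44) and for the lipoprotein gene Apoe (82.45, 13.06 and 96.9). It was also the lowest for 3 targets of the aryl hydrocarbon receptor, which responds to planar aromatic chemicals: Cyp1a1 (64.86, 3.576 and 76.13 CPM), Cyp1b1 (37.65, 4.981 and 47.22) and Ahrr (12.41, 2.014 and 16.67).

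Set against the other groups, the control lungs differed by few called genes. edgeR's quasi-likelihood test called 1 of 12963 genes (0.00771%) between hypoplastic and control lungs and 0 (0%) between treated and control lungs at a Benjamini-Hochberg adjusted p under 0.05, with 1603 and 539 genes at an unadjusted p under 0.05. DESeq2 called 198 and 16. Nothing in the labels says that the libraries came from separate litters, so p-values measure only the spread between these samples. The 2 comparisons share the control libraries. The groups also differed in their mix of male and female lungs. With sex as a covariate, edgeR called 1 gene in the hypoplastic and 0 in the treated comparison.

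The called gene was Spp1, which encodes osteopontin, a secreted matrix protein. It was at 4.311, 3.372 and 4.235 CPM in the control and at 73.11, 192.2 and 105 CPM in the hypoplastic libraries, without overlap, a log2 difference of 5.01 (SE 0.419, edgeR adjusted p = 0.00582). Without control libraries 1, 2 and 3 in turn, the log2 difference was 5.07, 4.89 and 5.06, and the edgeR adjusted p was 0.0988, 0.0524 and 0.0874. Olfm4, an olfactomedin family gene, and Tf, the transferrin gene, had the next smallest p but were not called (edgeR adjusted p = 0.153 for both). They were at 4.785 to 6.626 and 25.36 to 32.55 CPM in the controls and at 27.95 to 46.58 and 84.68 to 114.5 CPM in the hypoplastic libraries. Against the treated lungs the smallest p belonged to Lepr, the leptin receptor gene, which was at 10.79, 10.78 and 14 CPM there and above 30 CPM in every control (log2 difference -1.62, SE 0.2, edgeR adjusted p = 0.181), then to Olfm4 and Tacr1, the neurokinin 1 receptor gene (edgeR adjusted p = 0.999 for both). Of the growth genes, Igf2 was at 5989, 5461 and 5569 CPM in the hypoplastic libraries, above all controls (log2 difference 0.78, SE 0.208, edgeR adjusted p = 0.316), and Shh was at 13.46, 14.87 and 15.85, below all controls (-0.44, SE 0.195, edgeR adjusted p = 0.402).

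The size of the differences from hypoplastic lungs changed for several lists when control library 2 was left out. No gene of the lists was called, beside the 0.00771% called over all genes. The 10 alveolar type II genes had a median log2 difference (hypoplastic minus control) of -0.81 with library 2 and -0.5 without it, and the 10 type I genes -0.45 and -0.25. At an unadjusted p under 0.05, 7 of the type II and 4 of the type I genes were lower and none was higher, beside 866 higher and 737 lower (12.4%) of the 12963 genes tested. For macrophage genes the median was 0.95 with it and 0.57 without it, and for matrix genes 0.3 and 0.07. Red cell genes turned from -0.48 to 0.06. Control library 2 was not alone in this: without hypoplastic library 2 instead, the macrophage median was 0.25 and the matrix median 0.09. Several lists of other cell types or tissues had higher medians in the hypoplastic lungs. The 7 neutrophil genes had medians of 2.94 with control library 2 and 3.06 without it, with 5 higher at an unadjusted p under 0.05. They summed to 12.6 to 18.1 CPM in the controls against 67.9 to 112 in the hypoplastic libraries. The 8 heart muscle genes had medians of 3.21 and 3.43, with 6 higher, but their sums overlapped (32.8 to 65.5 CPM against 29.1 to 330). The 5 cartilage genes had medians of 2.18 and 1.84, with 4 higher, and a median of 0.3 without hypoplastic library 1. The sums of the 6 cartilage genes measured also overlapped (154.8 to 521.4 CPM in the controls against 452.8 to 1230). With control library 2, the medians were 2.11 for the 5 basal airway genes, all higher at that p, and 2.16 for the 6 nerve genes, with 4 higher. The basal sums overlapped (9.43 to 13.58 CPM in the controls against 6.492 to 117.9). The nerve sums did not (6.078 to 7.402 CPM against 8.013 to 21.69). The part of these cell types in the other differences was not tested. Over all genes tested the median was 0.01.

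Against the treated lungs the alveolar lists moved toward 0 without control library 2. Alveolar type II genes had a median log2 difference (treated minus control) of -0.32 with it and -0.01 without it, type I genes -0.27 and -0.08, and neutrophil genes 2.31 and 2.43. For Ifit1, an interferon-induced gene, the call depended on library 2. The 3 controls were at 0.6847, 30.08 and 0.0649 CPM, and the other 6 libraries at 29.15 to 51.44. Its edgeR adjusted p was 0.504 in the hypoplastic and 0.999 in the treated comparison, and 0.0099 and 0.0124 without control library 2, where it was the only gene called. The interferon genes Ifit3 (0.6195, 0.8776 and 0.4705 CPM) and Isg15 (0.5181, 0.1097 and 0.292) were low in all 3 controls. Unlike Ifit1, both were also under 1 CPM in hypoplastic library 1 and treated libraries 1 and 2. They were at 99.95 and 22.91 CPM in hypoplastic library 2, at 3.245 and 1.568 in hypoplastic library 3 and at 9.137 and 5.658 in treated library 3.

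**Figure D5:**
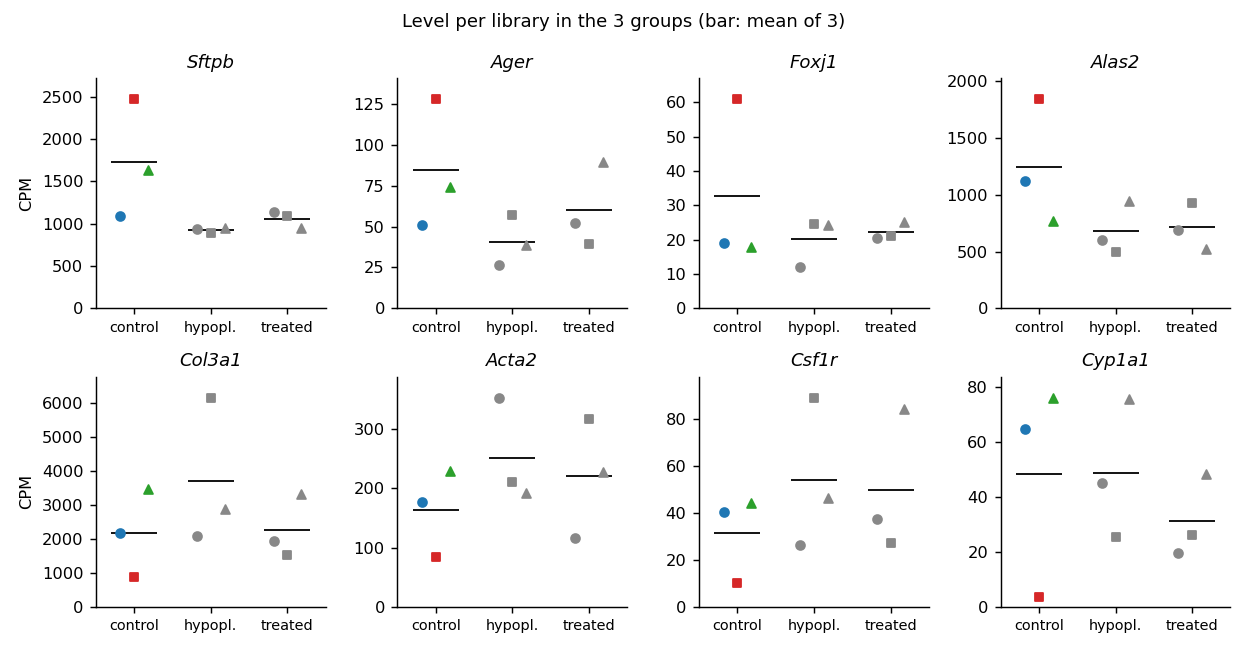
CPM of 8 genes in each of the 9 libraries (bars: mean of 3 libraries; circle, square and triangle: libraries 1, 2 and 3 of the group; coloured points: controls). Control library 2 (square) was the highest of all 9 for Sftpb, Ager, Foxj1 and Alas2 and the lowest of all 9 for Col3a1, Acta2, Csf1r and Cyp1a1.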

How the data were processed

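RNA levels were measured in 9 libraries of fetal rat lung, 3 per group. The authors deposited 1 table of estimated counts (expected counts, 17465 genes by NCBI Gene ID) without normalization between libraries. Per the submitters' processing notes the genome build was rn7 and DESeq2 was used; no aligner, counter or setting is named in the sources used here. Columns named c1 to c3 were read as the control samples. Symbols from RefSeq (GRCr8) matched 99.1% of IDs. Of 451 genes in 41 lists, 423 matched; the others were not analysed here, and some items are not reported here. Promoter sequences come from RefSeq (GRCr8).

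CPM uses the library total without 6 rows that RefSeq classes as ribosomal or 7SL RNA. Differences between single libraries are described and not tested, on log2(CPM + 0.1). Rounded counts of all 9 libraries entered edgeR 4.0.16 (R 4.3.3; TMM, filterByExpr, glmQLFit with legacy=FALSE, glmQLFTest, Benjamini-Hochberg over 12963 genes), which was tested on simulated data; DESeq2 1.42.0, other factors, filters, covariates and each library left out were alternatives. Standard errors are approximate: each is the log2 difference over the root of its F value. The sex of a library was read from its Y-linked genes.

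Lists, members and naming rules were chosen with earlier results of these data known; the intestinal and interferon genes were added after values were seen. Named were the 25 leading genes, up to 4 highest genes of each list, the 12 most variable and 12 stablest genes, called genes or the 3 of smallest p, and 8 fixed genes; Aqp5, Sox2, Lyz2, Tcf21, Wnt7b, Dll4, Aldh1a2, Fbn2, Fbln5, Zbtb16, Scnn1b, Scnn1g, Eln, Lamc1, Fn1, Igf1, Igfbp3, Igfbp4, Meg3, Ifit1 and other genes outside the rule were chosen after their values were seen.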

Additional observations from a re-analysis of the deposited data

How the results depend on the processing

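Of 504 alternative values of 67 results, 466 were classed as the same as the main value. For single genes this required the same sign and the same side of the adjusted p threshold. For list medians it required only the same sign, so their size could change. Counts and CVs were allowed to differ by a set ratio, and the share of the leading genes by its SD. The number of genes called between hypoplastic and control lungs (1) was 198 with DESeq2, 4 with only the 6 libraries compared and 0 to 54 with 1 library left out. Between treated and control lungs (0) it was 16 with DESeq2 and 0 to 1 with 1 library left out. With the replicate number as a block the counts were 2 and 0. Deviations from the group mean had correlations of -0.285 to 0.245 in the 9 pairs of libraries that share a number. In the 18 other pairs they were -0.439 to 0.389. With 3 libraries per group, such correlations cannot decide whether the numbers pair the samples. The count of 54 arose without hypoplastic library 3, and the cause was not tested.

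With 1 control library left out, the median CV ran from 7.76% to 13.2% and the number of genes over 2-fold apart from 155 to 843, both lowest without library 2; fewer libraries lower such a count by construction. At a mean of at least 5 CPM that number was 546. The share of the 10 leading genes was 6.33% with the ribosomal and 7SL rows in the total, which enlarges it, and 12 of the leading 25 genes led per genomic span. Some medians (log2) changed sign. With 1 library left out, red cell genes ran from -0.8476 to 0.0606 in the hypoplastic and from -0.8057 to 0.1024 in the treated comparison, and matrix genes of the treated comparison from -0.1736 to 0.3238; the positive red cell values and the lowest matrix value arose without control library 2, and the matrix median was -0.0034 without treated library 3. With sex as a covariate, the treated comparison gave 0.0022 for red cell and -0.0305 for matrix genes. In the hypoplastic comparison that covariate gave -0.1613 for red cell, 2.2409 for heart muscle and -0.8406 for alveolar type II genes, with the signs kept. With the ribosomal and 7SL rows kept, the median difference of library 2 over all genes was -0.0339. The cause of these changes was not tested. Low genes are limited by depth: 1 CPM stood for 45.6 to 61.6 counts in the controls.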

Other observations

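Several members of the aryl hydrocarbon receptor pathway differed less between control library 2 and the other controls than Cyp1a1, Cyp1b1 and Ahrr did. The receptor gene Ahr was at 175.1, 202.2 and 178.9 CPM in control libraries 1, 2 and 3 and its partner Arnt at 104.9, 82.38 and 101.8. The targets Tiparp (200.7, 135.1 and 189.8 CPM) and Nqo1 (202.4, 138.5 and 236.1) were lowest in library 2, by less than 2-fold. Cyp1a1 ran from 19.46 to 75.76 CPM in the other groups, so the 3.576 CPM of library 2 was the lowest of the series. These genes were looked at after the most variable genes were known.

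The ribosomal row Rn28s held 718266 and 2402501 counts in control libraries 1 and 2 and 0 in library 3. Xist was at 38.9 CPM in control library 1 beside 178.1 CPM of Y-linked genes, while the other male libraries were at 0.255 to 1.8 CPM of Xist. The 460 rows of microRNA genes together held at most 7.4e-06% of the counts in a control library, so this table gives no microRNA levels.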
